A study of Mus musculus with 4 samples.

Results

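The homeobox genes Otx1, Otx2, En1, En2, Barhl1, Barhl2, Pax6, Tlx3 and Pou3f4 were followed through mouse brain tumours. They are 9 of the 32286 features in each count matrix and were taken by symbol, all 9 being present. The set was chosen by the measured YSG over SG difference of Otx1 and by related genes whose levels in these libraries were already known, so the YSG and SG levels of all 9 genes are a description and carry no test.

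The tumours, labelled MB, were dissociated fresh and captured as single cells with the 10x Genomics 3' kit V3. SG mice carried fSMO-M2, a Cre-dependent, constitutively active Smoothened, and hGFAPcre, a Cre recombinase under the human GFAP promoter. YSG mice carried the same pair of transgenes plus fYap1, a floxed allele of the Hippo pathway coactivator Yap1, and were described as rescued. All groups were sampled at end point, and both genotypes shared the fSMO-M2 and hGFAPcre alleles. The GFAP promoter drives Cre in neural progenitors, so recombination was not limited to cells of the granule lineage. There was 1 library for each combination of genotype and sex, named here by both, as SG male or YSG female. The number of animals behind a library, their ages and the zygosity of fYap1 were not given in the sources used here. Genotype and sex cannot be told apart from animal, litter, age or capture run.

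Homeobox genes encode transcription factors that bind DNA through a homeodomain and fix regional and cell identity in the embryo. Otx1 and Otx2 mark forebrain, midbrain and, later, cerebellar granule cells. En1 and En2 are the engrailed genes of the midbrain and anterior hindbrain, where Otx2 and hindbrain factors meet at the isthmus. Barhl1, Barhl2 and Pax6 belong to rhombic lip derivatives, which include granule cell progenitors and their postmitotic neurons. Tlx3 is a factor of excitatory neuron fate that is also present in developing granule neurons, and Pou3f4 is a POU-domain factor of neural progenitors and inner ear mesenchyme.

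The targeted gene was scarce in the YSG libraries. Yap1 gave 266 unique molecular identifiers (UMIs) in SG males, 10 in YSG males, 374 in SG females and 3 in YSG females. The kit reads the 3' end of transcripts, so these counts do not show which exons a transcript held. Barcodes needed 500 UMIs and 300 genes, with no more than 20% of UMIs mitochondrial, which left 8419 cells in SG males, 7882 in YSG males, 7656 in SG females and 7193 in YSG females, with 58308739 to 86810253 UMIs per library. Pairs of libraries shared 10 to 21 cell barcodes. The granule lineage markers Zic1 and Neurod1 had a UMI in 82.7% to 91.1% and 53.3% to 75.7% of the cells of a library. For Zic2, Rbfox3 and Cntn2 it was 53.3% to 64.0%, 40.2% to 53.2% and 40.0% to 50.2%. Atoh1, Gli1 and Mfap4 were scarcer, at 16.8% to 21.1%, 11.4% to 29.3% and 9.87% to 33.1%. By CPM, Gli1 and Mfap4 were lower in the YSG library of each sex, and the other markers of this list higher. Cells called from a marker list of another type made up 0.901% to 1.96% of a library. The remaining cells are called tumour cells below, although no marker was used to set them apart from normal granule cells. Levels are UMIs scaled to all UMIs of the same cells, as counts per 1e6 (CPM). Each level carries a 95% Poisson interval and each fold a 95% conditional binomial interval. These intervals cover counting error only and say nothing about variation between animals, since no group had a replicate. No level was tested between libraries. The tests below are of the difference between cell states inside a library, and of whether that difference varied with genotype.

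Otx1 was several-fold higher in the YSG libraries of both sexes. SG males had 782 Otx1 UMIs, a level of 10.7 CPM (interval 9.95 to 11.5). YSG males had 3537, a level of 58.1 CPM (56.2 to 60.04). SG females had 889, a level of 10.2 CPM (9.58 to 10.9), and YSG females had 4207, a level of 72.2 CPM (70.0 to 74.4). The intervals of the SG libraries overlapped each other, and neither overlapped a YSG interval. The fold was 5.43 (5.03 to 5.88) for males, against 7.05 (6.55 to 7.58) for females. Between the YSG libraries the female one was 1.24-fold higher (1.19 to 1.30).

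More cells held an Otx1 UMI in the YSG libraries. After each cell was thinned to 2000 UMIs, to set depths equal, an Otx1 UMI was found in 2.08% of cells in SG males and 10.3% in YSG males, outside the lists of other types, and in 1.82% in SG females and 12.8% in YSG females. Without thinning, over all kept cells, these shares were 7.63%, 29.8%, 9.20% and 35.99%. Cells with 3 or more Otx1 UMIs made up 0.297%, 3.17%, 0.379% and 5.45% in the same order, and no cell had more than 8. Leukocyte, endothelial and oligodendrocyte cells, taken as the background for free RNA, held an Otx1 UMI in 0 of 18 cells in SG males and 0 of 24 in SG females, and in 1 of 27 cells in each YSG library, at the same thinned depth. Counts of 0 allow shares of up to 16.7% and 12.5% there, and the YSG background was 3.70% (0.0937 to 19.0, Clopper-Pearson) in each sex. The tumour cells' shares lay above these background values and inside their wide limits. Background cells also held the granule lineage marker Zic1. In SG males it was 603 CPM in leukocyte (11 cells), 340 in endothelial and 99.1 in oligodendrocyte cells, against 478 CPM outside the lists. In the same order it was 448, 279 and 222 against 689 CPM in YSG males. It was 192, 195 and 157 against 471 CPM in SG females, and 160, 26.6 and 132 against 663 CPM in YSG females. Only the SG male leukocyte cells were thus above the level outside the lists. Whether all UMIs of background cells were free RNA was not tested.

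Tlx3 was also higher in both YSG libraries. It stood at 34.3 CPM in SG males and 105 CPM in YSG males. In SG females it was 35.9 CPM, and in YSG females 115 CPM. The SG levels again lay close together and below both YSG levels, with a fold of 3.05 (2.91 to 3.19) for males, against 3.22 (3.08 to 3.36) for females. In thinned cells the share with a Tlx3 UMI was 6.40% in SG males, 17.4% in YSG males, 6.78% in SG females and 18.6% in YSG females. The background cells gave 5.56%, 14.8% and 7.41% in SG males, YSG males and YSG females, from 1, 4 and 2 cells, and 0 of 24 in SG females. The tumour cells' shares were above these values and inside their counting limits.

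Pou3f4 went the other way. Its level was 43.4 CPM in SG males, 13.2 CPM in YSG males, 49.3 CPM in SG females and 11.8 CPM in YSG females. It was 3.28-fold lower in YSG males (3.03 to 3.55) and 4.19-fold lower in YSG females (3.86 to 4.54). Cells with 3 or more Pou3f4 UMIs made up 3.65% of SG male and 0.203% of YSG male cells, and 6.44% of SG female and 0.209% of YSG female cells. The highest count in a cell was 13 and 18 in the SG libraries against 4 and 5 in the YSG libraries.

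Of the 9 genes, 7 matched by symbol an entry in the RefSeq promoter table (GRCm38.p6), and Otx1 and En2 did not. For Tlx3 and Pou3f4 the stretch before the annotated start is shown, because these genes were past 2-fold between genotypes in opposite directions. Tlx3 lies on the minus strand of chromosome 11, from 33200752 to 33203589, and the stretch is chr11:33203590-33203838. Pou3f4 lies on the plus strand of chromosome X, from 110814280 to 110817207, and the stretch is chrX:110814129-110814279. Both are given 5′ to 3′ in the direction of the gene, and the capitals mark CCAAT, the CCAAT box, searched on both strands.
Tlx3: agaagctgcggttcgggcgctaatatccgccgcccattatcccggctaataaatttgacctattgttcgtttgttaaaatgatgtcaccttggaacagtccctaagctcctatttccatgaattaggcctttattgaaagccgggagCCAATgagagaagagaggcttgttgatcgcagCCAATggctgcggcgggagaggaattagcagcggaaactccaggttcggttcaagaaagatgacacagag
Pou3f4: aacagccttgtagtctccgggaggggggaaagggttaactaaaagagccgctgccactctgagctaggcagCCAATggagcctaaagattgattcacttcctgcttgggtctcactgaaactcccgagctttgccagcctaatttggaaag
The Tlx3 stretch held 2 CCAAT matches in 249 bases and the Pou3f4 stretch 1 in 151 bases. Among all 32851 windows of 250 bases before a start, 33.8% held CCAAT on either strand. The OTX motif TAATCC was in 6.25% of the windows, the homeodomain core TAATTA in 4.84% and the TEAD motif GGAATG, bound by the partners of Yap1, in 12.6%. None of these 3 was in the Tlx3 or the Pou3f4 stretch, which says only that these letters are not in these windows. TAATTA shares its TAAT core with TAATCC.

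Otx2, the paralogue of Otx1, was not higher in either YSG library. Its level was 47.2 CPM in SG males, 45.6 CPM in YSG males, 45.6 CPM in SG females and 26.7 CPM in YSG females. The first 3 libraries overlapped in their intervals, and the YSG female library lay below them, 1.71-fold lower than SG females (1.61 to 1.81). In males the fold was 0.967 (0.920 to 1.02), whose interval spans no change. Otx2os1, annotated as a lincRNA, overlaps Otx2 on the other strand, as the annotated antisense gene Pax6os1 does Pax6. Neither passed 1.38 CPM in any library. Crx, the remaining gene of the Otx family, had 0, 0, 1 and 3 UMIs.

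En1 and En2 differed less, and unequally between the sexes. En1 had 8.46 CPM in SG males and 11.0 CPM in YSG males, against 8.25 CPM in SG females and 14.8 CPM in YSG females. Its fold was 1.30 (1.16 to 1.45) for males, against 1.79 (1.62 to 1.98) for females. En2 had 40.5 CPM in SG males and 74.6 CPM in YSG males, against 35.4 CPM in SG females and 42.8 CPM in YSG females. Its fold was 1.84 (1.76 to 1.93) for males, against 1.21 (1.15 to 1.28) for females, so the YSG male library stood apart from the other 3 in En2. In SG males 1 of the 18 background cells held En1 and 3 held En2, and in SG females 2 and 4 of 24 did. These shares of 5.56%, 16.7%, 8.33% and 16.7% were above the tumour cells' shares of 1.48%, 8.32%, 1.47% and 7.18%. The background rests on 1 to 4 cells, with limits as wide as 3.58% to 41.4% for En2 in SG males. The SG shares of cells with an engrailed UMI thus could not be told from background at this depth. Without thinning, background cells had 109 CPM of En2 in SG males, 88.9 in YSG males, 42.1 in SG females and 20.3 in YSG females. Cells outside the lists had 40.5, 74.6, 35.4 and 42.9 CPM in the same order. Of YSG male background cells 36.1% (20.8 to 53.8) held En2, against 37.8% outside the lists, which could not be told apart either. Of YSG female background cells 8% (2.22 to 19.2) held En2, and the 25.2% outside the lists lay above that interval. The SG male background held 22 En2 UMIs in 26 cells, with up to 10 in a cell.

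Barhl1, Barhl2 and Pax6 were close to level. Barhl1 had 196 CPM in SG males, 215 CPM in YSG males, 174 CPM in SG females and 202 CPM in YSG females. Barhl2 lay between 78.5 and 87.0 CPM in the 4 libraries, with a fold of 1.08 in males and 1.08 in females. Pax6 had 243 CPM in SG males, 247 CPM in YSG males, 242 CPM in SG females and 307 CPM in YSG females. The YSG female library stood above the other 3 in Pax6, 1.27-fold over SG females (1.24 to 1.29), while the male fold of 1.02 (0.998 to 1.04) spanned no change.

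**Figure D1:**
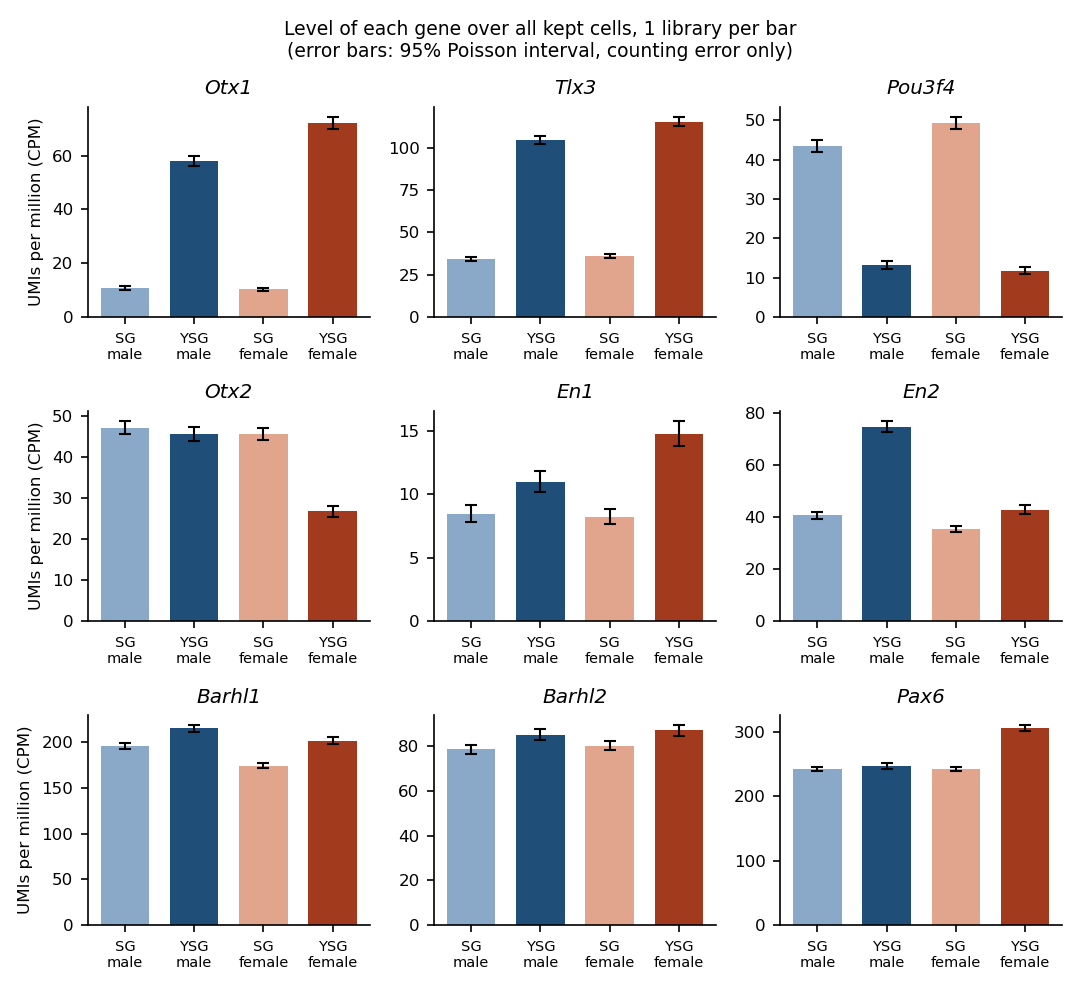
Levels of the 9 genes over all kept cells, in CPM (vertical axis, starting at 0), with 1 library per bar and 95% Poisson intervals for counting error. Otx1 and Tlx3 are higher and Pou3f4 lower in both YSG libraries, while Otx2 is low in YSG females and En2 high in YSG males.

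By a 2-fold limit on the log2 ratio of (CPM + 1), 3 of the 9 genes were past it in males and 3 in females, each time Otx1 and Tlx3 higher and Pou3f4 lower. Of all genes at 5 CPM or more in a compared library, 3.93% were past 2-fold in males and 5.56% in females, and nothing is read from the contrast since it chose the set. Over all kept cells the median log2 ratio of the 9 genes was 0.14 in males and 0.27 in females, against -0.008 and 0.0011 over all genes measured. The male library was past 2-fold of the female one in 0.159% of genes in SG and 1.57% in YSG, and in none of the 9 genes.

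The size of the genotype difference itself was not the same in the sexes for most of the genes. On the log2 scale, the female fold minus the male fold was 0.37 for Otx1, 0.46 for En1 and 0.31 for Pax6. For Otx2 it was -0.72, for En2 -0.60 and for Pou3f4 -0.35. These 6 counting intervals excluded 0, as did that of Barhl1 at 0.07. Those of Barhl2, at 0.00, and Tlx3, at 0.08, did not. With 1 library behind each level, this difference cannot be told apart from variation between animals.

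Because YSG libraries held more postmitotic cells, the folds were also taken within states. Cycling cells had 3 or more UMIs of Mki67 and Top2a together, genes of dividing cells. Postmitotic cells had none of these and 3 or more UMIs of the neuronal genes Cntn2, Rbfox3, Stmn2, Grin2b, Gabra6 and Snap25. Postmitotic cells were 29.7% of cells in SG males, 38.7% in YSG males, 25.9% in SG females and 47.2% in YSG females, and cycling cells 36.9%, 31.4%, 40.5% and 26.0%.

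Otx1, Tlx3 and Pou3f4 were past 2-fold inside both states. In cycling cells the Otx1 level was 11.4 CPM in SG males, 58.5 CPM in YSG males, 10.1 CPM in SG females and 74.7 CPM in YSG females. In postmitotic cells it was 10.4 CPM, 58.9 CPM, 11.2 CPM and 72.8 CPM in the same order. The level of Otx1 thus sat near 10 to 11 CPM in both SG libraries and far above in both YSG libraries, whichever state was taken. Tlx3 was 3.01-fold higher in cycling and 3.18-fold higher in postmitotic YSG male cells, and 3.58-fold and 2.55-fold higher in females. Pou3f4 was 3.41-fold lower in cycling and 3.41-fold lower in postmitotic YSG male cells, and 4.59-fold and 4.39-fold lower in females. In each state and sex, 3 of the 9 genes were past 2-fold. The shares of all genes past it were 4.27% and 4.55% in cycling cells of males and females, and 3.03% and 4.08% in postmitotic cells.

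**Figure D2:**
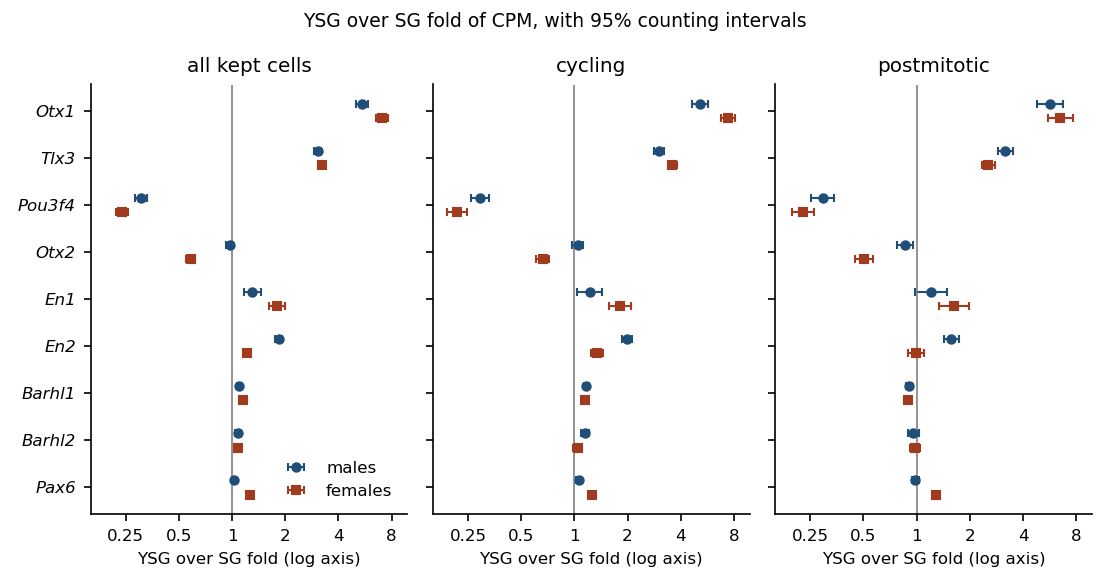
YSG over SG folds of CPM (horizontal log axis) for the 9 genes in all kept, cycling and postmitotic cells, males as circles and females as squares, with 95% counting intervals. Otx1, Tlx3 and Pou3f4 stay on the same side of 1 in every panel, while Barhl1 lies above 1 in cycling cells and below 1 in postmitotic cells of both sexes.

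Barhl1 changed sides between the states. In cycling cells its fold was 1.17 (1.13 to 1.21) for males, against 1.15 (1.11 to 1.197) for females. In postmitotic cells it was 0.907 (0.868 to 0.947) for males, against 0.89 (0.853 to 0.929) for females. The level was 156 CPM in cycling and 276 CPM in postmitotic cells of SG males and 143 and 261 CPM in SG females. In YSG males it was 182 and 250 CPM, and in YSG females 165 and 232 CPM. Both YSG libraries were thus above both SG libraries in cycling cells and below them in postmitotic cells.

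The state comparison has replicates, because each of the 4 libraries holds both states. UMIs were summed per library and state and tested with edgeR's quasi-likelihood test, with library as a block and Benjamini-Hochberg adjustment over 14034 genes. Of these, 61.5% passed at an adjusted p of 0.05, 29.8% higher and 31.7% lower in postmitotic cells, and 5 of the 9 genes passed. A count of 5 in 9 is close to that background.

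Among the rhombic lip factors, Barhl1 and Barhl2 passed and Pax6 did not. Barhl1 rose by a log2 fold of 0.56 (SE 0.06) in postmitotic cells, with an edgeR adjusted p of 3.48e-05, and was higher in 4 of 4 libraries. Barhl2 rose by 0.27 (SE 0.05; edgeR adjusted p = 0.000695), also in 4 of 4 libraries. Pax6 did not pass, with a log2 fold of -0.04 (SE 0.03; edgeR adjusted p = 0.288).

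En1 rose by a log2 fold of 0.32 (SE 0.07; edgeR adjusted p = 0.0031) and Tlx3 by 0.24 (SE 0.07; edgeR adjusted p = 0.0104), each higher in 4 of 4 libraries. When postmitotic cells needed 8 neuronal UMIs, Tlx3 stood at 0.09 and did not pass (edgeR adjusted p = 0.321). Otx2 fell by 0.26 (SE 0.07; edgeR adjusted p = 0.00835). Its postmitotic over cycling log2 fold by CPM was near 0 in SG males, -0.28 in YSG males, 0.01 in SG females and -0.39 in YSG females, so the lower values were those of the YSG libraries. Without the YSG female library Otx2 did not pass (edgeR adjusted p = 0.0536). When libraries were scaled to their total UMIs instead of by TMM, which moved the median log2 fold of all genes from 0.01 to 0.11, Otx2 stood at -0.16 and no longer passed (edgeR adjusted p = 0.0787). Otx1 at -0.11, En2 at 0.10 and Pou3f4 at 0.08 did not pass, with edgeR adjusted p of 0.131, 0.231 and 0.205.

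**Figure D3:**
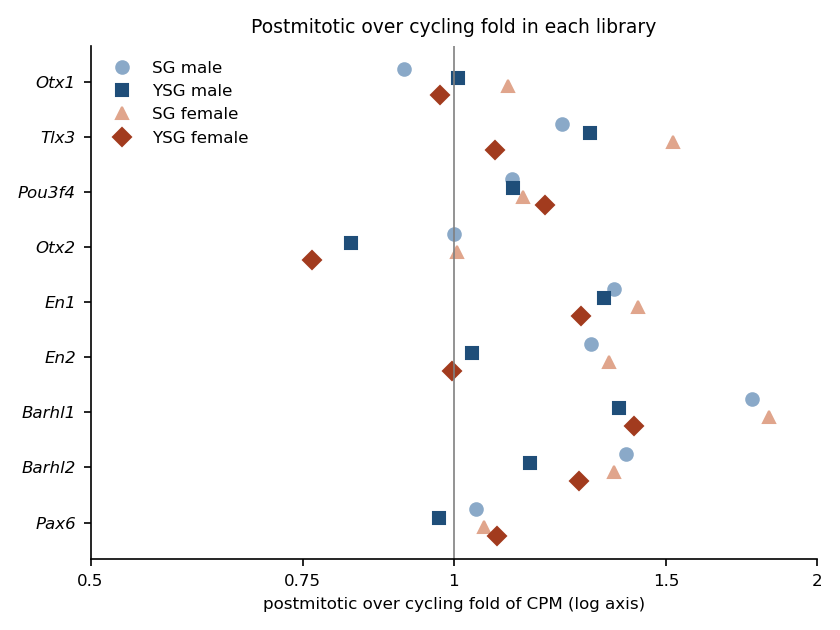
Postmitotic over cycling fold of CPM (horizontal log axis) for the 9 genes, 1 marker per library. Barhl1, Barhl2, En1, Tlx3 and Pou3f4 lie above 1 in the 4 libraries, the Barhl1 and En2 markers of YSG lie left of those of SG, and Otx2 lies well below 1 in the YSG libraries alone.

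Whether the state difference itself depended on genotype was then tested in 1 edgeR fit with the 2 sexes as replicates of each genotype, a test chosen after the values above were seen. Its p for Barhl1 therefore describes a difference already noticed in the same 4 libraries and is no independent evidence of it. Of 14034 genes, 1.46% passed at an adjusted p of 0.05, and of the 9 genes Barhl1 did. Its postmitotic over cycling log2 fold was 0.82 in SG males and 0.87 in SG females, and 0.45 in YSG males and 0.50 in YSG females. The fitted difference, YSG minus SG, was -0.36 (SE 0.06; edgeR adjusted p = 0.0124). The Barhl1 difference did not pass when postmitotic cells needed 1 neuronal UMI (-0.30; edgeR adjusted p = 0.0876). Nor did it pass without the SG male (-0.38) or without the SG female library (-0.35), fits that leave SG with 1 library. The difference was -0.36 for En2 (edgeR adjusted p = 0.0549) and -0.32 for Otx2 (edgeR adjusted p = 0.123). For En2 the log2 fold was 0.38 and 0.43 in SG males and females and 0.05 and -0.003 in YSG. Over 12 alternatives the En2 difference was -0.39 to -0.32. It passed when cycling cells needed 1 UMI, when cells of other types were kept, and when these were called from 0.2% of UMIs. It also passed with total-UMI scaling and without a filter on low counts (edgeR adjusted p from 0.017 to 0.0448 over these settings). Under the other state limits it did not pass. Leaving out a YSG library leaves YSG with 1 library, so only sizes are given for those fits. Without the YSG male library the difference was -0.38 for Otx2 and -0.33 for Tlx3. Without the YSG female library it was -0.29 for Otx2 and -0.25 for Barhl2. Otx2, Tlx3 and Barhl2 passed in no alternative that kept all 4 libraries. Adjusted p for the remaining 6 genes in the fit of all 4 libraries lay between 0.388 and 0.99.

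Co-detection in the same cell was counted for all 36 pairs in thinned cells outside the lists of other types. The ratio given is the share of cells with the second gene among cells with the first, over its share among cells without the first. Its median over the pairs was 1.07 in SG males, 1.001 in YSG males, 1.08 in SG females and 1.01 in YSG females. It was above 1 in all 4 libraries for 5 pairs, below 1 in all 4 for 4 pairs, and mixed for 27. Most pairs thus showed no side that the 4 libraries shared.

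Otx2 and En1, whose domains abut in the embryo, were the pair with the lowest ratio in SG males and YSG females. Among cells with an Otx2 UMI, 0.307% held En1 in SG males, against 1.59% of cells without Otx2. The shares were 1.34% against 2.19% in YSG males, 0.809% against 1.53% in SG females, and 0.997% against 2.82% in YSG females. The ratios were 0.193, 0.615, 0.528 and 0.354, from 2, 8, 5 and 3 cells that held both. In cycling cells they were 0.255, 0.484, 0.363 and 0.399, and in postmitotic cells 0.234, 0.591, 0.595 and 0.476. The counts are small, and En1 shares in SG could not be told from background. Without thinning, where deeper cells hold more of both genes, the ratios were 1.09, 0.984, 1.30 and 0.469.

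Otx1 was found less often in cells with Otx2, with ratios of 0.808, 0.851, 0.617 and 0.588. It was also less often found with Pou3f4, with ratios of 0.853, 0.768, 0.738 and 0.651. In YSG females 2.82% (1.82 to 4.17) of Otx1 cells held Otx2, against 4.80% of the others. In the other 3 libraries for Otx2, and in all 4 for Pou3f4, the interval of the share in Otx1 cells held the share of the others. At 1000 UMIs the YSG female ratio of Otx1 and Otx2 was 1.44, on the other side of 1. With Tlx3 the ratios of Otx1 were 0.958, 1.14, 1.38 and 1.19. In YSG females 21.6% (18.9 to 24.6) of Otx1 cells held Tlx3, against 18.2% of the others. Between the SG and YSG libraries Otx1 and Tlx3 were both several-fold apart, while within a library their ratio was 0.958 to 1.38.

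For En1 and En2 the ratio was 1.78 in SG males and 2.89 in SG females, against 0.901 and 0.915 in YSG. In SG females 20.2% (13.0 to 29.2) of the 104 cells with En1 held En2, against 6.98% of the others. In postmitotic cells the ratios were 1.78 and 3.38 in SG males and females and 0.739 and 0.745 in YSG. These came from 8, 11, 7 and 7 cells that held both. In cycling cells they were 1.24 and 2.52 in SG and 1.21 and 1.78 in YSG, from 4, 5, 8 and 7 cells. Within a state, only postmitotic SG females had an interval (15.4% to 45.9%) that left out the share of the others (8.55%). These counts are too small to place the contrast of genotypes in either state, and En1 shares in SG could not be told from background. The pairs above 1 in all 4 libraries were Otx1 with Barhl1, Otx1 with Barhl2, En1 with Barhl1, Barhl2 with Pax6, and Pax6 with Tlx3, with ratios from 1.004 to 1.27. The remaining pair below 1 in all 4 was Pax6 with Pou3f4, at 0.809 to 0.944. A tumour cell held on average 1.19 of the 9 genes in SG males, 1.41 in YSG males, 1.15 in SG females and 1.43 in YSG females at 2000 UMIs. The 18 to 27 background cells of a library held 0.833, 0.556, 0.458 and 0.37 in the same order.

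Other homeobox genes were read from a list of 100 outside the Hox clusters, of which 44 were at 5 CPM or more in a compared library of both sexes. Past 2-fold in the same direction in both sexes were 1 gene higher and 2 lower, against 2 higher and 1 lower of the 9 genes. Over all 10090 genes so measured, 1.10% were higher and 1.58% lower in both. Isl1, a LIM factor of motor and sensory neurons, had 0.561 CPM in SG males, 5.68 CPM in YSG males, 0.933 CPM in SG females and 13.4 CPM in YSG females. Shox2 had 7.66, 0.427, 8.86 and 0.0686 CPM in the same order. Zfhx3, a large zinc finger homeobox factor, had 72.5, 33.3, 83.7 and 27.0 CPM. Their log2 ratios of (CPM + 1) were 2.10 and 2.90 for Isl1 in males and females, -2.60 and -3.21 for Shox2, and -1.10 and -1.60 for Zfhx3.

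The isthmus signals Fgf8, Fgf17 and Wnt1 were scarce. Fgf8 had 2.23 CPM in SG males, 1.40 CPM in YSG males, 2.81 CPM in SG females and 3.04 CPM in YSG females. Its fold was 0.627 (0.476 to 0.819) for males, against 1.08 (0.885 to 1.32) for females. Fgf17 had 7, 10, 11 and 3 UMIs. Wnt1 had 0 UMIs in each library, where a count of 0 allows up to 3.

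**Figure D4:**
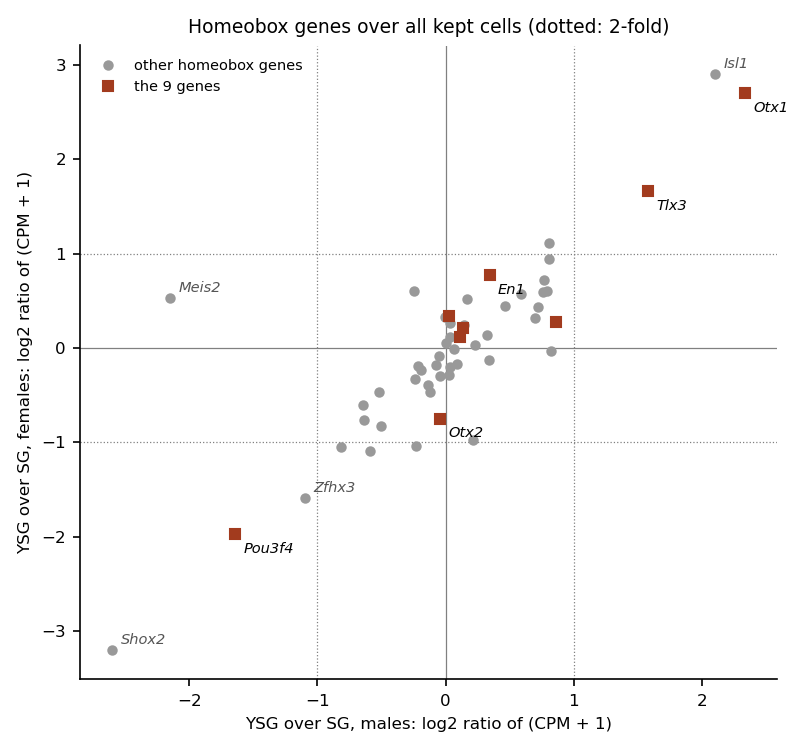
YSG over SG log2 ratio of (CPM + 1) in males (horizontal) and females (vertical) for the 9 genes (squares) and 44 other homeobox genes (circles), with dotted lines at 2-fold. Otx1, Tlx3 and Isl1 lie in the upper right corner and Pou3f4, Shox2 and Zfhx3 in the lower left, while Meis2 differs in direction between the sexes.

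The genes most like Otx1 were found over 12 sums, from 4 libraries by 3 states, among 10864 genes. Pearson's r on log2(CPM + 1) was 0.995 for Mndal, an interferon-inducible p200 family gene, 0.988 for Rims4, 0.988 for Pdgfra, 0.978 for Ehbp1 and 0.976 for Dlgap1. The sums of 1 library share its cells' source and depth, so these values describe mainly the 4 libraries. Mndal had 0.109 CPM in SG males, 47.1 CPM in YSG males, 0.0346 CPM in SG females and 92.7 CPM in YSG females. Pdgfra, also a marker of oligodendrocyte precursors, had 29.5, 70.6, 27.3 and 76.4 CPM. Cells called from that cell type's list numbered 14, 7, 4 and 14. The calling limit was set after a looser one had called many cells from genes that include Pdgfra. These numbers therefore do not show which cells held Pdgfra. Among the 9 genes r with Otx1 was 0.97 for Tlx3, 0.78 for En1 and -0.99 for Pou3f4, and between -0.66 and 0.60 for the remaining 5.

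Within cells the likeness was weak. Among 8168 genes found in 2% or more of the thinned cells of both YSG libraries, the highest ratios with Otx1, by the lower of the 2 YSG values, belonged to Rfng, Carmil3, Gcc1, Fgd1 and Abcd2. Rfng, a Fringe glycosyltransferase that modifies Notch, was in 4.38% of YSG male cells with Otx1 and 2.04% of those without, and in 3.29% and 2.18% in YSG females. In the SG libraries its ratio was 0.289 in males and 0 in females. There Rfng was in 0.613% of 163 cells with Otx1 in males and in 0 of 129 in females, against 2.12% and 2.06% of the others. So few Otx1 cells cannot show whether the likeness was shared by the SG libraries. Mndal, the closest by level, was not among these 5 genes. Apart from Otx1 itself, Tlx3 ranked highest of the 9 genes, at 336 of 8168, followed by Barhl1 at 1311.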

How the data were processed

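Single-cell RNA libraries of 4 mouse tumour groups (SG and YSG, males and females, 1 library each) were analysed. Per the file headers, the deposited values are UMI counts per gene and barcode, whole numbers that were not normalized, made with Cell Ranger 5.0.1. The submitters' processing notes name mm10. The members and gene lists were chosen with earlier results of these data known. Groups came from the genotype and sex labels.

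Cells were filtered at 500 UMIs, 300 genes and 20% mitochondrial UMIs. Doublets were kept: Scrublet (scanpy 1.11.5) marked 0 cells in each library, which does not show that doublets were absent. Other cell types were called from 10 marker lists at 5 or more UMIs of 3 or more genes and 0.1% of a cell's UMIs, a limit set after the data were seen. A looser limit had called many cells from C1ql1, Pdgfra and Fabp7. No clustering was used. UMIs were summed per library and state and divided by all UMIs of those cells. Summed UMIs were treated as independent, which leaves out clumping within cells. The state contrast was tested with edgeR 4.0.16 (TMM, filterByExpr, quasi-likelihood), and the p-values measure the spread between the 4 libraries. In simulated counts for 13905 genes, that fit recovered 56% of genes changed 1.2-fold and 100% of those changed 1.5-fold, with 0.073% of unchanged genes called. The simulation raised only 50 genes per fold, lowered none and gave each gene the same mean in every library. In the data 61.5% of genes passed, in both directions, so the simulated rates cannot be carried over to the data. Gene positions came from GENCODE M21 (mm10) and promoters from RefSeq. Named were the 9 genes, other homeobox genes past 2-fold alike in both sexes, 3 isthmus signals, and the 5 genes most like Otx1 by each of 2 measures. Alternatives covered cell filters, doublet removal, scaling, pseudocount, state limits, thinned depth, DESeq2 1.42.0 and leaving out each library. Computation used Python 3.11.15 and R 4.3.3.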

Additional observations from a re-analysis of the deposited data

Results flagged for a closer look

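The postmitotic over cycling log2 fold of Barhl1 was lower in YSG than in SG in 2 of 2 sexes, with a fitted difference of -0.36 (edgeR interaction term, adjusted p = 0.0124). The term was fitted after this pattern was seen in the same 4 libraries, with 1 library per genotype and sex, so its p is no independent evidence. Over 12 alternatives the difference ran from -0.48 to -0.30. It did not pass in 3 of them, among which were the fits that left SG with 1 library.

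Outside the set, 4 other homeobox genes had opposite genotype directions in the sexes, with counting intervals that excluded no change on both sides. These were chosen after their values were seen, and the difference between the sexes was not tested. Meis2, a TALE homeobox cofactor, had a YSG over SG fold of 0.167 (0.139 to 0.201) for males, from 969 UMIs in SG and 135 in YSG. For females it was 1.47 (1.36 to 1.60), from 1252 and 1239 UMIs. Pax3 had folds of 1.18 in males and 0.458 in females. Tshz1 had 0.841 in males and 1.52 in females. Irx5 had 1.27 in males and 0.913 in females.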

How the results depend on the processing

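Otx1, Tlx3 and Pou3f4 kept their direction and stayed past 2-fold under every filter, doublet, scaling, pseudocount and state alternative run. The count of all genes past 2-fold, the background of these folds, depended on low values. With a pseudocount of 5 CPM it was 200 in males and 298 in females over all cells, 211 and 234 in cycling and 144 and 215 in postmitotic cells. With a minimum of 20 CPM it was 207 and 303, 207 and 239, and 139 and 210.

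No paired analysis was possible because each group held 1 library, with no replicate numbers shared between libraries to pair. Without the library block, the state test gave 1870 genes higher, 2249 lower and 2 of the 9 genes, against 4181, 4445 and 5. Leaving out 1 library at a time gave 3646 to 4243 higher, 3577 to 4182 lower, and 4 to 5 of the 9 genes. Pax6, which did not pass, was at 0.058 when scaled to total UMIs, 0.0026 without YSG males and -0.058 without YSG females, against -0.04. Scaled to total UMIs, En2 and Pou3f4 passed. Tlx3 did not pass when 8 neuronal UMIs were needed.

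Co-detection ratios depended on depth, and 152 of 576 alternative values lay on the other side of 1. For 11 of these, at 2000 UMIs, the counting interval of the share in cells with the first gene left out the share of the others. That interval leaves out the counting error of the others' share, so it is not an interval of the ratio. The 11 values were as follows. Without thinning, SG males had 1.09 for Otx2 with En1, 1.202 for Otx2 with En2 and 1.39 for Pax6 with Pou3f4. SG females had 1.56 for Pax6 with Pou3f4. YSG females had 1.22 for Otx1 with Otx2, 1.21 for En2 with Tlx3 and 1.52 for Barhl2 with Pou3f4. At 1000 UMIs, En2 with Barhl1 was 0.902 in SG males, Pax6 with Pou3f4 1.01 in SG females, and Otx1 with Otx2 1.44 and En2 with Tlx3 1.14 in YSG females. The cause was not tested beyond the change of depth. Scarce genes limit these ratios, since En1 reached 1.47% to 2.73% of thinned cells.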
